A study of Mus musculus with 2 samples.

Results

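The 43 genes described here encode the glucose carriers and enzymes that take glucose to pyruvate and lactate, bring pyruvate into the mitochondrion and run the citrate cycle. They were chosen by symbol from a fixed list, and each of the 43 symbols was found among the 55416 features of the deposited matrices. The symbol Aldoa occurred in 2 rows, and the row with more UMIs was used; the other held 35 and 26 UMIs. The genes were measured by sequencing the RNA of single nuclei from the whole brain of fetal mice, in 1 wildtype library and 1 library of a Cav1 knockout. The study's title names the metabolic programming of the fetal brain. Caveolin 1 is the coat protein of caveolae, small pits of the plasma membrane. How Cav1 was disrupted, the fetal day, the sex and whether brains were pooled are not given in the sources used here. Counts are of unique molecular identifiers (UMIs), short tags that let PCR copies of 1 captured RNA count as 1, and a barcode assigns each to its nucleus.

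Glycolysis splits glucose in the cytosol, from uptake by glucose transporters (Slc2a genes) through hexokinase, phosphofructokinase, aldolase and enolase to pyruvate. Lactate dehydrogenase interconverts pyruvate and lactate, while pyruvate dehydrogenase and pyruvate carboxylase feed carbon into the citrate cycle. Several steps are catalysed by alternative enzymes encoded by paralogs, and which paralog a cell uses differs between dividing cells, neurons and astrocyte lineage cells. In the brain, Slc2a1 is the carrier of the blood-brain barrier endothelium and Slc2a3 that of neurons.

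Nuclei with at least 500 detected genes and at most 5% mitochondrially encoded UMIs were used, 6686 with 17205381 UMIs in the wildtype-labelled library and 6680 with 19878903 UMIs in the knockout-labelled library. Levels are counts per 1000000 UMIs (CPM) of the summed nuclei, with exact Poisson 95% intervals that cover counting error only. With 1 library per genotype there is no replicate check and no test, so each difference between the libraries compares those libraries and not the genotypes. Cav1 itself held 71 UMIs in the wildtype-labelled library and 80 UMIs in the knockout-labelled library, 4.13 and 4.02 CPM. In endothelial cell-like nuclei it held 14 UMIs in 7 of 37 nuclei of the former and had a UMI in 0 of 48 nuclei of the latter, which allows a share of up to 6.25% of nuclei with a UMI. Whether the counted 3′ reads lie outside the deleted part is not given, so the total does not check the label. The libraries shared 43 barcodes, of which 26 and 15 were among the nuclei used.

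Classes of nuclei were rebuilt by clustering without the 43 genes and without the other pathway genes counted below, after removal of the nuclei with the highest doublet scores. Radial glia are the neural stem cells of the fetal brain, and the nuclei called radial glia-like here numbered 691 (wildtype-labelled) and 596 (knockout-labelled). Neuron clusters held 3951 and 3843 nuclei, and endothelial cell-like and mural cell-like nuclei, pooled as vascular, held 65 and 78. The radial glia-like class joined cluster 16, which carried markers of dividing cells, with cluster 1, which did not. Cluster 1 held 8 of 12 radial glia markers and also 6 of 7 oligodendrocyte precursor markers, a larger part of the latter list. Cluster 16 held 9 of 12 radial glia and 4 of 8 intermediate progenitor markers. The class may thus hold other cells than radial glia, and its name is used as a label. A separate dividing cluster of 318 and 300 nuclei carried as many radial glia markers as forebrain inhibitory neuron markers and was kept apart.

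Summed over all 43 genes, the level was 1856 CPM (1836 to 1877) in the wildtype-labelled library and 1904 CPM (1885 to 1923) in the knockout-labelled library. The log2 ratio of the knockout-labelled to the wildtype-labelled library was 0.04 (0.01 to 0.06). Within classes the 19 genes from glucose uptake to lactate summed to 821 and 850 CPM in radial glia-like nuclei and to 815 and 850 CPM in neurons, wildtype-labelled library first. The 24 genes of pyruvate entry, citrate cycle and malate exit summed to 1103 and 1145 CPM in radial glia-like nuclei against 925 and 910 CPM in neurons. The summed level of the first group differed by under 1% between radial glia-like nuclei and neurons in each library, while single genes within it were far apart. Without Pfkp, the gene of this group with the largest difference, the sums were 809 and 832 CPM in radial glia-like nuclei and 609 and 601 CPM in neurons.

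Between neurons and radial glia-like nuclei, 5 of the 42 members with enough counts were at least 1.5-fold higher in neurons in both libraries and 8 were at least 1.5-fold lower. A gene was compared where the mean CPM of both classes gave at least 10 expected UMIs in the smaller class of each library. Of all 12274 genes compared in this way, 35.2% passed the same rule, 14.4% higher and 20.8% lower in neurons. Of the 11206 genes that the clustering did not use, as it did not use the members, 33.5% passed, 13.6% higher and 20.0% lower. The members' count is close to these backgrounds. The median log2 ratio of the members was −0.20 and −0.30, against −0.21 and −0.20 over all genes compared. The higher members were Pfkp, Slc2a3, Hk1, Me1 and Eno2, and the lower members were Hk2, Suclg2, Aldoc, Pcx, Slc2a1, Eno1, Ldha and Idh3b. Among the 42, 31 had a log2 ratio below 0 in both libraries, 6 above 0 in both and 5 on opposite sides. Radial glia-like nuclei were also restricted to cluster 1, which lacks dividing-cell markers but carries most oligodendrocyte precursor markers. Against it, 33 members could be compared and 7 passed. Of the 13 members above, 6 passed again (Slc2a3, Hk1, Pfkp, Ldha, Pcx and Suclg2), 2 were compared and did not pass (Eno1 and Idh3b), and Slc2a1, Hk2, Aldoc, Eno2 and Me1 had too few UMIs to be compared. The seventh was Aldoa.

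**Figure D1:**
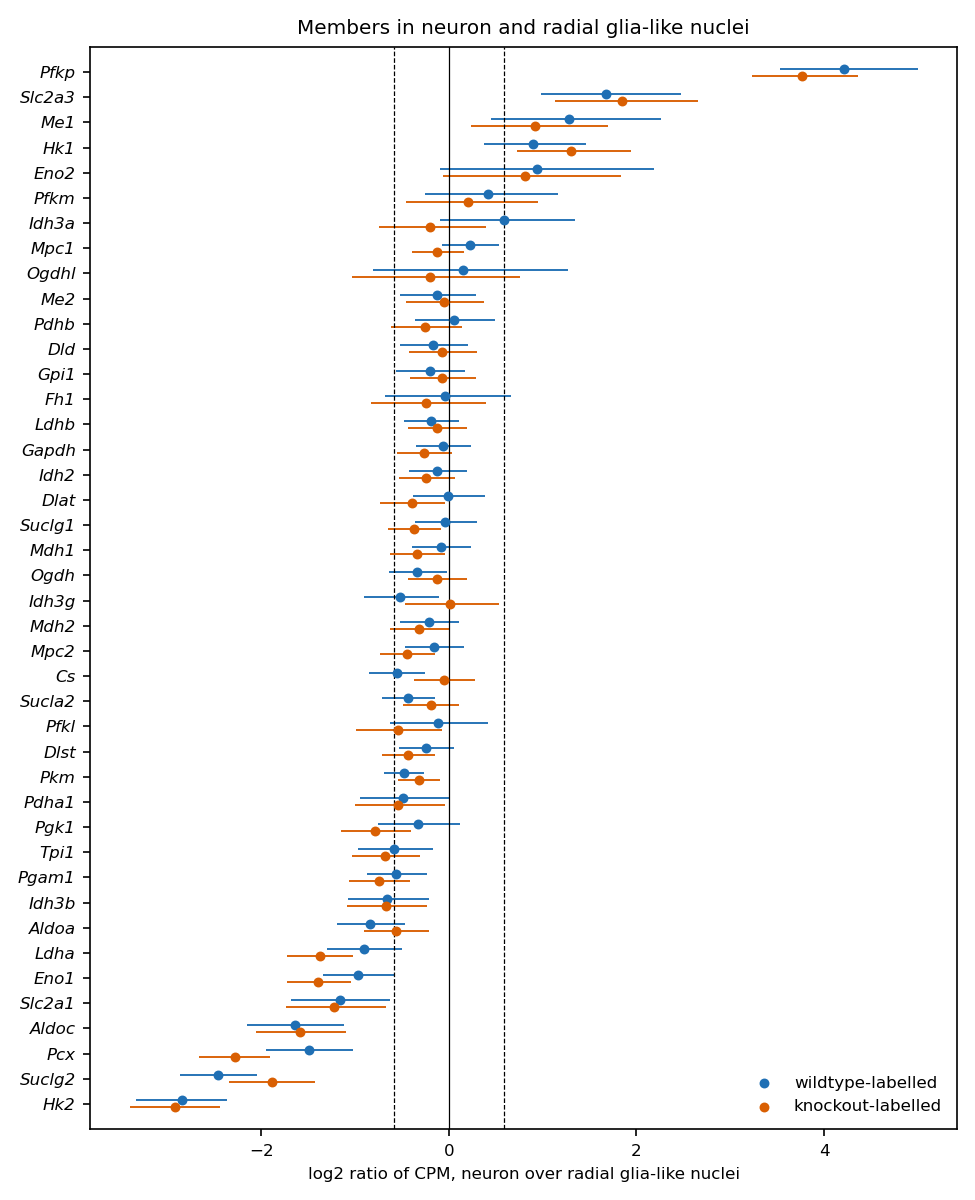
Log2 ratio of CPM in neurons over radial glia-like nuclei for the 42 members compared, in the wildtype-labelled (blue) and knockout-labelled (orange) library; bars are exact 95% counting intervals and dashed lines mark 1.5-fold. Pfkp stands at the top at 4.22 and 3.77, Hk2 at the bottom at −2.85 and −2.92, and most members lie between the dashed lines.

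The 2 glucose carriers had opposite patterns. Slc2a1, a high-affinity carrier, was at 27.4 CPM (42 UMIs) in radial glia-like nuclei and 12.2 CPM (128 UMIs) in neurons of the wildtype-labelled library, and at 25.4 CPM (39 UMIs) and 10.9 CPM (143 UMIs) in the knockout-labelled library. Slc2a3, the neuronal carrier, was at 11.1 CPM (17 UMIs) in radial glia-like nuclei and 35.4 CPM (372 UMIs) in neurons of the wildtype-labelled library, and at 10.4 CPM (16 UMIs) and 37.4 CPM (491 UMIs) in the knockout-labelled library. The log2 ratio of neurons to radial glia-like nuclei was −1.17 (−1.68 to −0.63) and −1.22 (−1.74 to −0.67) for Slc2a1, and 1.68 (0.98 to 2.47) and 1.84 (1.13 to 2.66) for Slc2a3. Slc2a3 held 28.8% (Clopper-Pearson interval 17.8 to 42.1) and 29.1% (17.6 to 42.9) of the UMIs of both carriers in radial glia-like nuclei, and 74.4% (70.3 to 78.2) and 77.4% (74.0 to 80.6) in neurons. A share of this kind depends on the lengths and priming sites of both genes, so that only its differences between classes or libraries are read here. The size of such a difference in percentage points still depends on them. Within neurons the Slc2a3 share was 67.4% and 63.0% in cortical excitatory neuron-like nuclei, and 80.1% and 82.7% in inhibitory neuron-like nuclei outside the forebrain. In the 2 radial glia-like clusters Slc2a3 was at 10.99 and 7.85 CPM (5 and 6 UMIs, cluster 1) and at 11.1 and 13.0 CPM (12 and 10 UMIs, cluster 16). Slc2a1 was at 22.0 and 24.9 CPM in cluster 1 and at 29.7 and 25.9 CPM in cluster 16. At these counts the intervals of the clusters overlapped for both carriers.

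Endothelial cell-like nuclei had an Slc2a1 level far above that of any other named class. The level was 588 CPM (481 to 711; 106 UMIs in 37 nuclei) in the wildtype-labelled library and 1396 CPM (1235 to 1571; 274 UMIs in 48 nuclei) in the knockout-labelled library. Slc2a3 held 3 UMIs in each library there, 2.75% (0.571 to 7.83) and 1.08% (0.224 to 3.13) of the UMIs of both carriers. At least 1 Slc2a1 UMI was found in 29 of 37 (78.4%) and 42 of 48 (87.5%) endothelial cell-like nuclei, at median depths of 2778 and 2669 UMIs per nucleus. The share was 3.06% and 3.54% in neurons, at median depths of 2270 and 2678 UMIs. In mural cell-like nuclei, the contractile cells around capillaries, Slc2a1 held 1 UMI in the wildtype-labelled library and none in the knockout-labelled library, where a count of 0 allows up to 57.3 CPM. Endothelial cell-like nuclei were 0.553% and 0.719% of all nuclei used and held 25.9% and 43.4% of all Slc2a1 UMIs. Nuclei removed for their doublet scores count in these totals but not in the class.

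The knockout-labelled library had the higher Slc2a1 level in these nuclei, with a log2 ratio of 1.2 (0.92 to 1.58). Per nucleus, Slc2a1 ran from 0 over a median of 478 CPM to a highest value of 6374 CPM in the wildtype-labelled library, and from 0 over a median of 1188 CPM to 4082 CPM in the knockout-labelled library. The nuclei overlapped, with 11 of 37 and 25 of 48 above 1000 CPM. Without the nucleus holding the most Slc2a1 UMIs in each library the levels were 515 and 1280 CPM. Other genes differed in the same nuclei. Of 631 genes compared there between the libraries, 27.6% were higher and 22.8% lower past a log2 ratio of 0.32. Of the 12 endothelial markers used to name the class, none was at 0 in either library, 10 were higher in the knockout-labelled library and 8 of these by a log2 ratio of at least 0.32. Their summed level was 8136 against 12933 CPM, a log2 ratio of 0.67 (0.58 to 0.76), and Cldn5, a tight junction gene, and Flt1, a VEGF receptor gene, had log2 ratios of 1.17 and 1.02. The 11 mural markers summed to 1237 and 2547 CPM, and 3 of them (Notch3, Anpep and Higd1b) were at 0 in the wildtype-labelled library. The 12 general neuron markers summed to 3466 and 2384 CPM, the 10 fibroblast markers to 399 and 112 CPM, and the 10 erythroid markers to 832 and 6021 CPM. In the knockout-labelled library 2 nuclei held over 1% haemoglobin UMIs. Without them its erythroid markers summed to 835 CPM and its Slc2a1 level was 1217 CPM. The part of these markers in the Slc2a1 difference was not tested.

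**Figure D2:**
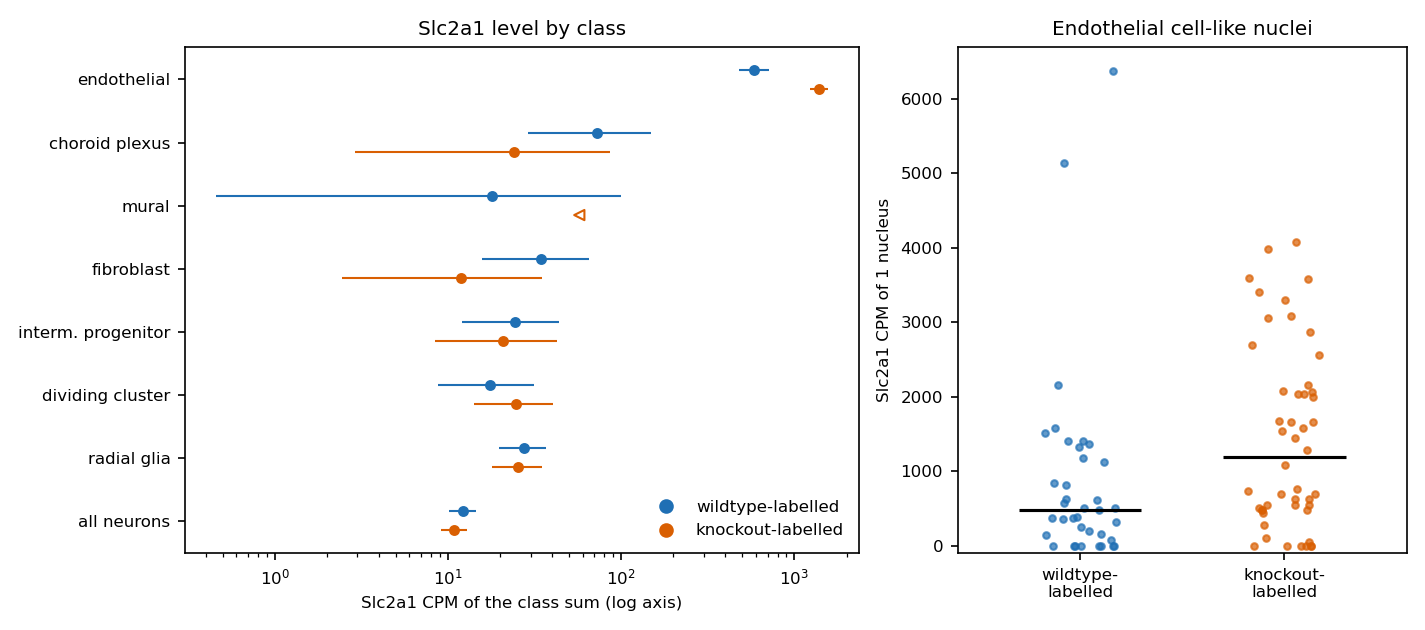
Left, Slc2a1 level in CPM by class on a log axis, with exact 95% counting intervals, for the wildtype-labelled (blue) and knockout-labelled (orange) library; the open triangle is the limit of 57.3 CPM that a count of 0 allows in mural cell-like nuclei. Right, Slc2a1 CPM of each endothelial cell-like nucleus, with lines at the medians of 478 and 1188 CPM; the nuclei of the libraries overlap.

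Hexokinase traps glucose in the cell as glucose 6-phosphate, and its 2 genes had opposite patterns in radial glia-like nuclei and neurons. Hk1 is the common brain form, and Hk2 is a form that many growing and dividing cells use. Hk2 was at 50.2 CPM (77 UMIs) in radial glia-like nuclei and 6.96 CPM (73 UMIs) in neurons of the wildtype-labelled library, and at 45.6 CPM (70 UMIs) and 6.01 CPM (79 UMIs) in the knockout-labelled library. Hk1 was at 20.9 CPM (32 UMIs) and 38.8 CPM (407 UMIs) in the wildtype-labelled library, and at 16.3 CPM (25 UMIs) and 40.3 CPM (529 UMIs) in the knockout-labelled library. The log2 ratio of neurons to radial glia-like nuclei was −2.85 (−3.33 to −2.37) and −2.92 (−3.41 to −2.44) for Hk2, and 0.89 (0.37 to 1.46) and 1.31 (0.73 to 1.95) for Hk1. Hk2 held 70.6% (61.2 to 79.0) and 73.7% (63.6 to 82.2) of hexokinase UMIs in radial glia-like nuclei, and 15.2% (12.1 to 18.7) and 13.0% (10.4 to 15.9) in neurons.

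Other progenitor classes had a high Hk2 share too. It was 60.0% (44.3 to 74.3) and 65.5% (45.7 to 82.1) in the dividing cluster, and 69.7% (51.3 to 84.4) in intermediate progenitor-like nuclei of the wildtype-labelled library, the only library with 20 hexokinase UMIs in that class. Within radial glia-like nuclei, Hk2 was at 60.3 CPM (46.5 to 76.8) and 70.0 CPM (52.6 to 91.4) in cluster 16, which carries dividing-cell markers, and at 26.4 CPM (13.6 to 46.1) and 20.9 CPM (12.0 to 34.0) in cluster 1. The share was 74.7% and 91.5% in cluster 16 against 54.5% (32.2 to 75.6) and 44.4% (27.9 to 61.9) in cluster 1, so that part of the radial glia value rests on the cluster with dividing-cell markers. Among neurons the share was 25.6% (19.2 to 32.8) and 19.8% (13.1 to 28.1) in cortical excitatory neuron-like nuclei, and between 8.70% and 12.8% in the other 3 large neuron classes. The intervals of the cortical and the other neuron classes overlapped in part. Hk1 was at 22.0 and 26.2 CPM in cluster 1 and at 20.4 and 6.48 CPM in cluster 16, and its log2 ratio of neurons to cluster 1 was 0.82 (−0.07 to 1.89) and 0.62 (−0.02 to 1.34).

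The promoters of both hexokinase genes are printed with their matches to a short motif of hypoxia-inducible factor, a known regulator of glycolytic genes. A link between the matches and the levels was not tested. They are the 250 bases before the start site from RefSeq on GRCm38.p6, 5′ to 3′ on the strand of the gene, and capitals mark matches to ACGTG or GCGTG on either strand (CACGT or CACGC when read on the printed strand). Matches may overlap each other, and CACGTG holds a match on each strand. Hk2 (chr6:82774455-82774704, minus strand) had 2 matches to ACGTG. Hk1 has 2 listed starts on the minus strand, of which the first below (chr10:62379909-62380158) had no match and the second (chr10:62340422-62340671) had 3 matches to GCGTG and none to ACGTG.
Hk2: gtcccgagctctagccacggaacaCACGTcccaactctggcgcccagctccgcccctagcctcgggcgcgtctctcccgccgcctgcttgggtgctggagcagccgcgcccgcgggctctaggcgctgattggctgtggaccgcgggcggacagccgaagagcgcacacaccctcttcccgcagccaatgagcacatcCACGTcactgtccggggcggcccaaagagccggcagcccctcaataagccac
Hk1, first start: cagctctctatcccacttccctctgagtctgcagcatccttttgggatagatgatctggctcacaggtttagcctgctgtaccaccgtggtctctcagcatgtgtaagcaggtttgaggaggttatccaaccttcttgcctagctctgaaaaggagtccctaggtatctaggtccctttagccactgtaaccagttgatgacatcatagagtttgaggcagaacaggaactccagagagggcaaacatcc
Hk1, second start: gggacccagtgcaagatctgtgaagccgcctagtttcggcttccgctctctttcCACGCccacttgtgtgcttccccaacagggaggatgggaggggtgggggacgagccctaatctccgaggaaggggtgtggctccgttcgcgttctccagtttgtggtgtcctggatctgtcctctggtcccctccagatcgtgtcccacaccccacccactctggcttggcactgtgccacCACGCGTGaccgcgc
Over the whole table, 16.6% of 32851 promoters held ACGTG in this window and 38.6% held either motif. Of the 59 promoters listed for 40 members, 22 (37.3%) held ACGTG and 41 (69.5%) held either. Among the members lower in neurons, 4 of 13 promoters held ACGTG and 10 held either. Among those higher in neurons, 1 of 6 held ACGTG and 3 held either. A match is a string of letters in this window and no measurement of binding.

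Phosphofructokinase commits sugar to glycolysis and is encoded by a liver-type gene, Pfkl, a muscle-type gene, Pfkm, and a platelet-type gene, Pfkp. Between neurons and radial glia-like nuclei, Pfkp had the largest ratio of the members compared. It was at 11.1 CPM (17 UMIs) in radial glia-like nuclei and 206 CPM (2164 UMIs) in neurons of the wildtype-labelled library, and at 18.2 CPM (28 UMIs) and 248 CPM (3263 UMIs) in the knockout-labelled library. The log2 ratio was 4.22 (3.53 to 5.0) and 3.77 (3.23 to 4.36). Pfkl, by contrast, had log2 ratios of −0.12 and −0.55, and Pfkm of 0.42 and 0.20, none past 1.5-fold. Pfkp held 23.0% (13.99 to 34.2) and 28.9% (20.1 to 39.0) of the set's UMIs in radial glia-like nuclei and 83.9% (82.4 to 85.3) and 87.1% (86.0 to 88.1) in neurons. The Pfkl share was 50.0% and 50.5% in radial glia-like nuclei and 9.03% and 7.66% in neurons. Pfkp was low in both radial glia-like clusters, at 13.2 and 23.6 CPM in cluster 1 and at 10.2 and 13.0 CPM in cluster 16. The dividing cluster, at 32.3% and 33.3% Pfkp, and intermediate progenitor-like nuclei of the wildtype-labelled library, at 29.6%, lay with the radial glia-like nuclei.

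Neuron classes differed among themselves in Pfkp. Forebrain inhibitory neuron-like nuclei had 36.4 CPM (27.4 to 47.5) and 33.9 CPM (24.8 to 45.3). Cortical excitatory neuron-like nuclei had 127 CPM (116 to 139) and 132 CPM (120 to 145), and the excitatory and inhibitory classes outside the forebrain had 277 to 324 CPM. The neuron-like cluster without a finer name had the highest level, 430 CPM (361 to 508) and 517 CPM (466 to 573). Forebrain inhibitory against cortical excitatory nuclei, the log2 ratio of Pfkp was −1.80 (−2.24 to −1.40) and −1.96 (−2.43 to −1.52). Of the 38 members compared between these 2 classes, Pfkp and Me1 were lower past 1.5-fold and none was higher, where 15.1% of all 11140 genes passed, 6.4% higher and 8.66% lower. The Pfkp share in forebrain inhibitory neuron-like nuclei was 46.6% (37.2 to 56.0) and 46.0% (36.0 to 56.3), with 26.7% and 36.0% for Pfkl.
The promoter of Pfkp is printed because the gene had the largest ratio of neurons to radial glia-like nuclei. It (chr13:6648772-6649021, minus strand, RefSeq on GRCm38.p6) had 3 matches to GCGTG and none to ACGTG, marked as above.
Pfkp: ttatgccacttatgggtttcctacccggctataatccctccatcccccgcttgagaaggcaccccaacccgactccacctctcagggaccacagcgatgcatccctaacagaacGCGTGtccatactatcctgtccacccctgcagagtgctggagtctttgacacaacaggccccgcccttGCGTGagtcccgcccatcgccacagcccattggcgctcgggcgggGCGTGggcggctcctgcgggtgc

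**Figure D3:**
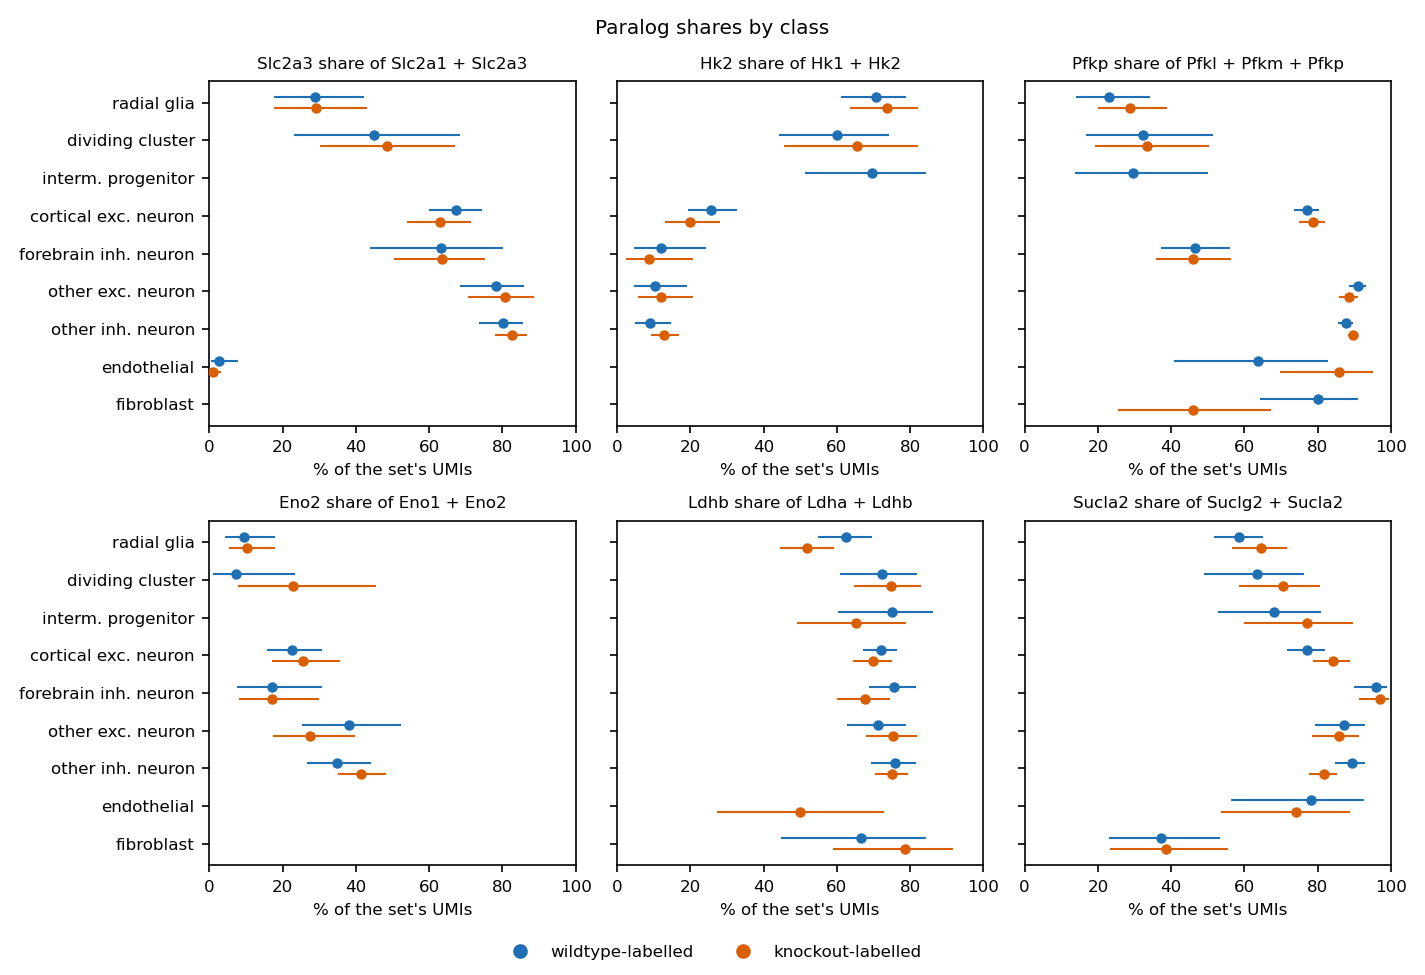
Share of a paralog set's UMIs held by 1 gene, in %, by class in the wildtype-labelled (blue) and knockout-labelled (orange) library, with exact binomial 95% intervals; classes with under 20 UMIs of the set in a library are left out. The progenitor classes lie above all 4 neuron classes for Hk2 and below 3 of them for Pfkp, and the libraries overlap in most classes. For Pfkp, forebrain inhibitory neurons overlap the dividing cluster and intermediate progenitors, and in the knockout-labelled library also radial glia.

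Of the aldolases, which cleave fructose bisphosphate, Aldoc is the form of astrocyte lineage cells. Aldoc was at 31.3 CPM (48 UMIs) in radial glia-like nuclei and 10.0 CPM (105 UMIs) in neurons of the wildtype-labelled library, and at 33.9 CPM (52 UMIs) and 11.3 CPM (148 UMIs) in the knockout-labelled library. Its log2 ratio was −1.65 (−2.15 to −1.12) and −1.59 (−2.05 to −1.10). Aldoa, the ubiquitous form, had −0.84 and −0.57, the second just inside 1.5-fold. The Aldoc share differed less between the classes than the Hk2 share, at 36.9% and 38.2% in radial glia-like nuclei against 25.1% and 23.4% in neurons. Aldoc was at 26.4 and 28.8 CPM in radial glia-like cluster 1 and at 33.4 and 38.9 CPM in cluster 16, with overlapping intervals. Between the dividing cluster and radial glia-like nuclei, Aldoc was the one member of 35 past 1.5-fold, at −0.71 (−1.76 to 0.22) and −0.87 (−1.91 to 0.06). That is 12 UMIs in the dividing cluster of each library, and 11.1% of 9097 genes passed in this comparison, 4.57% higher and 6.57% lower.

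Of the lower glycolytic enzymes, enolase has a pair of paralogs whose shares differed between the classes. Eno1, the general form, was at 49.6 CPM (76 UMIs) in radial glia-like nuclei and 25.2 CPM (265 UMIs) in neurons of the wildtype-labelled library, and at 61.9 CPM (95 UMIs) and 23.5 CPM (309 UMIs) in the knockout-labelled library. Its log2 ratio was −0.97 (−1.35 to −0.59) and −1.40 (−1.73 to −1.05). Against cluster 1 alone the Eno1 ratio was −0.48 (−1.20 to 0.35) and −1.59 (−2.01 to −1.14), inside 1.5-fold in the wildtype-labelled library, so that the call was lost. Eno2, the neuronal form, had only 8 and 11 UMIs in radial glia-like nuclei, and its log2 ratio of 0.94 (−0.09 to 2.19) and 0.81 (−0.07 to 1.84) had intervals that included 0. The Eno2 share was 9.52% (4.2 to 17.9) and 10.4% (5.30 to 17.8) in radial glia-like nuclei and 28.4% (23.8 to 33.3) and 34.8% (30.5 to 39.3) in neurons. In the neuron-like cluster of the knockout-labelled library it was 66.7% (47.2 to 82.7). Gapdh, Pgk1, Pgam1 and Pkm had log2 ratios from −0.07 to −0.79 in either library, and none passed 1.5-fold in both. Pkm encodes 2 splice forms of pyruvate kinase, which counts per gene do not separate.

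Ldha, the lactate dehydrogenase subunit that favours lactate formation, was at 44.4 CPM (68 UMIs) in radial glia-like nuclei and 23.6 CPM (248 UMIs) in neurons of the wildtype-labelled library, and at 59.3 CPM (91 UMIs) and 22.8 CPM (299 UMIs) in the knockout-labelled library. Its log2 ratio was −0.91 (−1.30 to −0.50) and −1.38 (−1.72 to −1.03), and against cluster 1 alone −0.66 (−1.37 to 0.14) and −1.05 (−1.55 to −0.51). Ldhb, the subunit of oxidative tissues, had −0.19 (−0.48 to 0.11) and −0.13 (−0.43 to 0.19). The Ldhb share was 62.4% (54.9 to 69.5) and 51.9% (44.5 to 59.2) in radial glia-like nuclei and 73.2% (70.2 to 76.0) and 72.0% (69.2 to 74.7) in neurons. It was 72.4% and 74.7% in the dividing cluster, close to the value of neurons. Cluster 1 of the radial glia-like nuclei had an Ldhb share of 70.7% (57.3 to 81.9) on the wildtype-labelled side against 50.7% (38.7 to 62.6) on the other, with overlapping intervals.
The promoter at the first listed start of Ldha (chr7:46845554-46845803, plus strand, RefSeq on GRCm38.p6) is printed because it had 5 matches to ACGTG, among them 2 copies of CACGTG.
Ldha: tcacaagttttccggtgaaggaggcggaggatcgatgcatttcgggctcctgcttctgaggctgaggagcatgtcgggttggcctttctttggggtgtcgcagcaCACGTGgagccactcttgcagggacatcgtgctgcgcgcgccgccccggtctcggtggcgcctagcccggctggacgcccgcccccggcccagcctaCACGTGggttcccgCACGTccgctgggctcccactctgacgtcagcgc

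At the entry of pyruvate into the mitochondrion, the carrier subunits Mpc1 and Mpc2 and the pyruvate dehydrogenase genes Pdha1, Pdhb, Dlat and Dld stayed within 1.5-fold between neurons and radial glia-like nuclei in both libraries. Their shares within their sets differed by at most 6.60 percentage points. Pcx was the exception at this step. It encodes pyruvate carboxylase, which makes oxaloacetate and is known in the brain as an enzyme of astrocytes. Pcx was at 36.5 CPM (56 UMIs) in radial glia-like nuclei and 13.0 CPM (136 UMIs) in neurons of the wildtype-labelled library, and at 60.6 CPM (93 UMIs) and 12.4 CPM (163 UMIs) in the knockout-labelled library. Its log2 ratio was −1.50 (−1.95 to −1.02) and −2.29 (−2.66 to −1.90). Unlike Hk2, Pcx was higher in cluster 1, at 48.3 CPM (30.3 to 73.2) and 82.5 CPM (63.4 to 106), than in cluster 16, at 31.5 CPM (21.8 to 44.1) and 38.9 CPM (26.2 to 55.5). The intervals overlapped in the wildtype-labelled library and not in the knockout-labelled library. In endothelial cell-like nuclei Pcx was at 77.6 CPM (42.4 to 130) and 81.5 CPM (46.6 to 132), from 14 and 16 UMIs. In mural cell-like nuclei it held 11 UMIs, 210 CPM (105 to 376), in the knockout-labelled library and none in the wildtype-labelled library, where a count of 0 allows up to 54.1 CPM.

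Within the citrate cycle, 11 of the 13 members were within 1.5-fold between neurons and radial glia-like nuclei in at least 1 library. The 2 lower members were Suclg2 and Idh3b. Suclg2 encodes the GTP-forming and Sucla2 the ATP-forming subunit of succinyl-CoA ligase, which both pair with Suclg1. Suclg2 was at 58.7 CPM (90 UMIs) in radial glia-like nuclei and 10.7 CPM (112 UMIs) in neurons of the wildtype-labelled library, and at 38.4 CPM (59 UMIs) and 10.4 CPM (136 UMIs) in the knockout-labelled library. Its log2 ratio was −2.46 (−2.87 to −2.04) and −1.89 (−2.34 to −1.43), while Sucla2 had −0.44 and −0.19 and Suclg1 −0.04 and −0.38. Suclg2 was at 50.5 and 38.0 CPM in radial glia-like cluster 1 and at 62.1 and 38.9 CPM in cluster 16. Sucla2 held 58.5% (51.7 to 65.2) and 64.5% (56.7 to 71.7) of the pair's UMIs in radial glia-like nuclei and 85.1% (82.4 to 87.6) and 85.5% (83.0 to 87.7) in neurons. Its share was 95.9% (89.8 to 98.9) and 97.0% (91.4 to 99.4) in forebrain inhibitory neuron-like nuclei, where Suclg2 held 4 and 3 UMIs. In the neuron-like cluster of the knockout-labelled library all 44 UMIs of the pair were Sucla2. Fibroblast-like nuclei lay at the other end, with 37.2% (23.0 to 53.3) and 38.5% (23.4 to 55.4). Suclg2 was also the one member of 27 past 1.5-fold between intermediate progenitor-like and radial glia-like nuclei, at −0.82 (−1.72 to −0.03) and −0.69 (−1.97 to 0.38) from 15 and 8 UMIs, where 20.4% of 6660 genes passed, 8.15% higher and 12.2% lower.

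Idh3b, a regulatory subunit of NAD-dependent isocitrate dehydrogenase, had log2 ratios of −0.66 (−1.07 to −0.22) and −0.67 (−1.09 to −0.23). In cluster 1 alone as the radial glia-like group these were −0.14 and −0.57, inside 1.5-fold. Ogdhl, a paralog of the 2-oxoglutarate dehydrogenase gene Ogdh, held 8.62% and 12.1% of the pair's UMIs in radial glia-like nuclei and 11.7% in neurons of both libraries. Of the malic enzymes, which turn malate to pyruvate, cytosolic Me1 was at 7.83 CPM (12 UMIs) and 19.1 CPM (200 UMIs) in the wildtype-labelled library and at 11.7 CPM (18 UMIs) and 22.2 CPM (292 UMIs) in the knockout-labelled library, radial glia-like nuclei before neurons. Its log2 ratio was 1.28 (0.45 to 2.26) and 0.92 (0.24 to 1.70). Against cluster 1 alone, with 5 and 14 Me1 UMIs, it was 0.79 (−0.45 to 2.43) and 0.28 (−0.49 to 1.17). Mitochondrial Me2 had −0.12 and −0.06, and its share of the set was 78.2% and 66.7% in radial glia-like nuclei against 56.9% and 52.1% in neurons. Me3 had 5 and 10 UMIs in radial glia-like nuclei and was not compared.

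Over all 12 sets of related genes, 17 of 29 genes, from 8 sets, had a share that differed in the same direction by at least 10 percentage points between neurons and radial glia-like nuclei in both libraries. In a pair of genes the shares mirror each other, so that both genes pass or neither does. No background from other gene sets is given for this count. This limit was chosen after the values were seen. The 8 sets were the glucose carriers, hexokinase, phosphofructokinase, aldolase, enolase, lactate dehydrogenase, succinyl-CoA ligase and malic enzyme. The sets of the pyruvate carrier, pyruvate dehydrogenase and isocitrate dehydrogenase hold subunits and not alternative enzymes, and none of their genes passed. With radial glia-like nuclei restricted to cluster 1, 7 genes of the hexokinase, phosphofructokinase and succinyl-CoA ligase sets passed. The aldolase, lactate dehydrogenase and malic enzyme sets were compared and did not pass. The glucose carriers and enolase had under 20 UMIs in the wildtype-labelled library and could not be compared. Of the 43 members, 34 overlap a gene on the opposite strand and 11 a gene on the same strand in the GENCODE M39 annotation on GRCm39, and the use of strand in counting is not given. Examples are Hk1 (chromosome 10, 62104621 to 62215687, minus strand) with Tacr2 and Hk1os, and Pfkp (chromosome 13, 6629798 to 6698970, minus strand) with Pitrm1 and Gm35730. Hk2 (chromosome 6, 82699740 to 82751469, minus strand) overlaps Gm17034, and Suclg2 (chromosome 6, 95433231 to 95695866, minus strand) overlaps none.

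Between vascular nuclei and neurons, 17 members had enough counts, and 2 were higher and 2 lower past 1.5-fold in both libraries, where 38.0% of 4942 genes passed, 20.1% higher and 17.9% lower. Slc2a1 had log2 ratios of 5.22 (4.83 to 5.60) and 6.66 (6.36 to 6.96). Sucla2 was at 102 CPM (24 UMIs) and 101 CPM (25 UMIs) in vascular nuclei, a log2 ratio of 0.74 (0.08 to 1.32) and 0.72 (0.09 to 1.30). Pfkp was lower in vascular nuclei, at 63.6 CPM (15 UMIs) and 129 CPM (32 UMIs), with −1.70 (−2.54 to −0.97) and −0.95 (−1.50 to −0.45). Gapdh, with 9 and 10 UMIs, had −0.86 (−1.99 to 0.07) and −0.60 (−1.67 to 0.28), intervals that included 0. The other 13 members compared were within 1.5-fold in at least 1 library. The remaining 26 members fell short of the 10 expected UMIs, which rest on the mean level of both classes. Of these 26, Pcx, with 14 and 27 vascular UMIs, had log2 ratios of 2.20 (1.29 to 2.99) and 3.13 (2.48 to 3.72). Suclg2, with 10 UMIs in each library, had 1.99 (0.89 to 2.92) and 1.96 (0.87 to 2.88). None of the 26 had intervals below 0 in both libraries.

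Between the libraries as a whole, 3 of 43 members had a log2 ratio of at least 0.32 in either direction, the limit used here, where 12.6% of the 15528 genes with at least 100 UMIs passed (8.02% higher and 4.6% lower in the knockout-labelled library). The members' share rests on 3 genes and is not read as different from that background. Their median log2 ratio was 0.02, against −0.01 for all genes, with 25 members above 0 and 18 below. For 34 members the counting interval included 0, for 6 it lay above and for 3 below. Slc2a1 held 409 and 631 UMIs, 23.8 and 31.7 CPM, a log2 ratio of 0.42 (0.24 to 0.60). Without endothelial cell-like nuclei it was 17.8 and 18.1 CPM, with a log2 ratio of 0.03 (−0.20 to 0.25), so that the call was lost. This remainder includes the nuclei removed for their doublet scores. It still held 262 and 420 UMIs of the endothelial marker Cldn5, against 210 and 514 in the class. Hk2 held 281 and 244 UMIs, 16.3 and 12.3 CPM, a log2 ratio of −0.41 (−0.67 to −0.16). Hk2 was lower in 4 of the 5 classes with at least 20 Hk2 UMIs, with a median log2 ratio of −0.55. The ratio was −0.92 (−2.22 to 0.24) in intermediate progenitor-like, −0.14 (−0.63 to 0.35) in radial glia-like and −0.57 (−1.35 to 0.18) in cortical excitatory neuron-like nuclei, −0.55 (−1.48 to 0.35) in the dividing cluster and 0.52 (−0.38 to 1.52) in inhibitory neuron-like nuclei outside the forebrain. Each of these intervals included 0. The Hk2 levels of the radial glia-like clusters given above rose in cluster 16 and fell in cluster 1 from the wildtype-labelled to the knockout-labelled side, with overlapping intervals. Radial glia-like nuclei numbered 691 (wildtype-labelled) and 596 (knockout-labelled), intermediate progenitor-like nuclei 225 and 143, and the dividing cluster 318 and 300. The part of these numbers and of the mix of clusters in the Hk2 ratios was not tested. Over all neurons the Hk2 ratio was −0.21 (−0.69 to 0.27), and it was −0.17 over all nuclei once each was thinned to 1000 UMIs. Me3 held 123 and 180 UMIs, 7.15 and 9.05 CPM, a log2 ratio of 0.34 (0.002 to 0.68), and 0.28 among nuclei with at least 1000 genes, inside the limit.

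Pfkp and Aldoa lay just inside the limit. Pfkp held 2785 and 3947 UMIs, 162 and 199 CPM, a log2 ratio of 0.29 (0.22 to 0.37). Over all neurons the ratio was 0.27 (0.19 to 0.35), but it was 0.05 (−0.14 to 0.25) in cortical excitatory, −0.10 (−0.70 to 0.49) in forebrain inhibitory, −0.23 (−0.40 to −0.05) in other excitatory and 0.07 (−0.05 to 0.19) in other inhibitory neuron-like nuclei. It was 0.27 (−0.02 to 0.56) in the neuron-like cluster without a finer name and 0.72 (−0.20 to 1.68) in radial glia-like nuclei, and above 0 in 7 of the 10 classes with at least 20 Pfkp UMIs, with a median of 0.17. The inhibitory neuron-like nuclei outside the forebrain, a class of high Pfkp level, numbered 827 (wildtype-labelled) and 1227 (knockout-labelled), and their part in the pooled ratio was not tested. Aldoa held 667 and 933 UMIs, 38.8 and 46.9 CPM, a log2 ratio of 0.28 (0.13 to 0.42). It was above 0 in 7 of the 9 classes with at least 20 Aldoa UMIs, at 0.53 (0.16 to 0.89) in cortical excitatory and 0.65 (0.14 to 1.16) in forebrain inhibitory neuron-like nuclei.

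**Figure D4:**
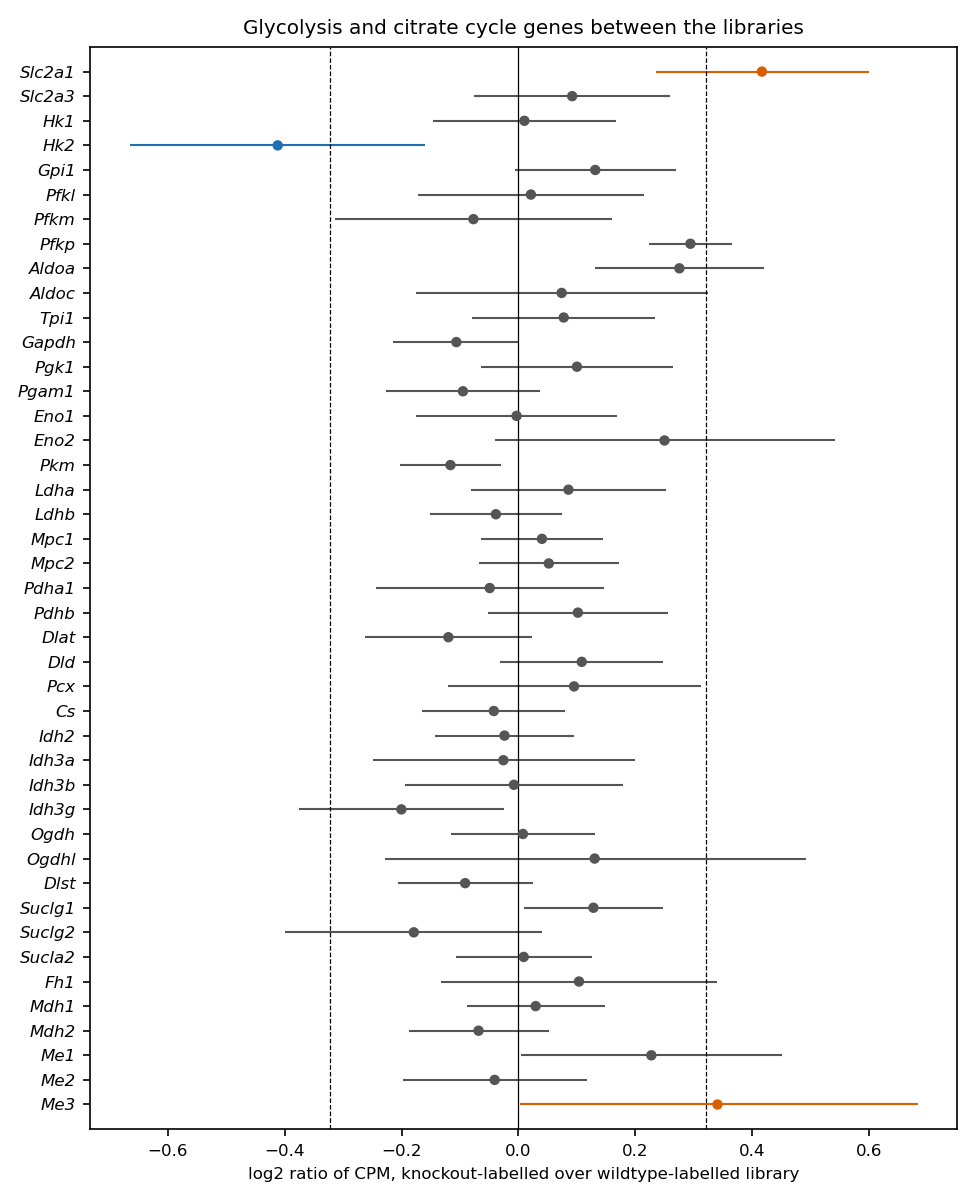
Log2 ratio of CPM in the knockout-labelled over the wildtype-labelled library for the 43 members over all nuclei used, with exact 95% counting intervals; dashed lines mark log2 ratios of −0.32 and 0.32, orange is higher and blue lower past it. Slc2a1 and Me3 lie past the line on the right and Hk2 on the left, and the remaining 40 lie between the lines.

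Other genes of the pathway were counted from 4 lists. Between the libraries, where 8.02% of all genes were higher and 4.6% lower past the limit, 1 of 13 compared carriers and other isozymes was higher and 1 lower, 2 of 14 regulators of glycolytic flux and pyruvate dehydrogenase were lower, none of 26 further citrate cycle and shuttle genes passed, and 1 of 19 hypoxia factor genes and targets was higher. Bsg, whose product escorts monocarboxylate carriers to the membrane, held 1884 and 2871 UMIs with a log2 ratio of 0.40 (0.32 to 0.48), and 0.38 (0.29 to 0.46) without endothelial cell-like nuclei. Ldhd, which oxidises D-lactate, had −0.39 (−0.61 to −0.18), Pdk2, a pyruvate dehydrogenase kinase, −0.34 (−0.71 to 0.02), Pfkfb1 −0.35 (−0.84 to 0.14) and the hypoxia target Ankrd37 0.44 (0.08 to 0.80).

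Between neurons and radial glia-like nuclei, 5 of 15 compared hypoxia factor genes and targets were lower in neurons and 1 was higher, against the backgrounds of 20.8% and 14.4%. The lower ones were Egln3, Hif3a, Vegfa, P4ha1 and Kdm3a. Egln3, an oxygen-sensing prolyl hydroxylase, held 41 and 55 UMIs in radial glia-like nuclei and 10 and 22 in the many more neurons, log2 ratios of −4.81 and −4.42. Vegfa, the vascular growth factor, had −1.26 and −1.08, and Ndrg1 was the higher one at 1.24 and 1.17. Among carriers and other isozymes 4 of 11 were higher (Slc16a7, Slc2a8, Eno4 and Ldhd) and 2 lower (Slc16a1 and Adpgk). The lactate carriers Slc16a7 and Slc16a1 stood at 1.41 and 1.51, and at −1.48 and −0.85. Of the regulators, 2 of 10 were higher (Pfkfb4 and Pdp1) and 3 lower (Pdk2, Pdk3 and G6pc3), and of the citrate cycle and shuttle genes none of 24 was higher and 3 were lower (Slc25a13, Gpd2 and Glud1). In vascular nuclei against neurons Bsg (2.64 and 3.14), Gpd2 (2.51 and 2.41) and the hypoxia factor gene Epas1 (7.61 and 6.95) were higher and Slc2a13 was lower (−1.02 and −0.85), of 20 genes compared over the 4 lists, against backgrounds of 20.1% higher and 17.9% lower.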

How the data were processed

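The data were raw UMI counts per gene and barcode of 2 libraries, as the authors deposited them, and per the file headers they came from Cell Ranger 6.1.1. The submitters' processing notes name Cell Ranger 3.0.1, STAR and GRCm39. The annotation, the counting of introns and the use of strand are not given in the sources used here. Barcodes with at least 500 genes and at most 5% mt- UMIs were kept, and the counts were summed per library and class and divided by the sum to give CPM. Classes came from Leiden clustering (scanpy 1.11.5) at resolution 1 of 6151 and 6146 nuclei left after removal of the top 8% of Scrublet scores, since the automatic threshold marked no nucleus. Levels over a whole library include those nuclei. Clusters were named from marker lists and are not the authors' annotation. The marker lists, the members, the other pathway lists and the limits of fold were chosen with earlier results of these data known. Any member could be named, with full values for members past a limit (at most the 12 with the largest log2 ratios per comparison) and for members of the paralog sets, and other pathway genes only where past a limit. Intervals are exact at 95% and cover counting error only. No per-sample column was left unused. By gene identifier, 54749 features (98.8%) matched GENCODE M39. The steps were tested on simulated data. Alternatives were other gene minimums, doublet handling, scalings, thinning to 1000 UMIs per nucleus, cluster resolutions and folds.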

Additional observations from a re-analysis of the deposited data

Results flagged for a closer look

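Some members had library ratios past 0.32 on the log2 scale in opposite directions in 2 classes with at least 100 UMIs of the gene over both libraries. With 1 library per genotype none of these differences was tested, and the values are log2 ratios of the knockout-labelled to the wildtype-labelled library with counting intervals. This held for 4 of 38 members (10.5%) with at least 2 such classes and for 9.07% of the 9442 genes of that kind, so the members' share is near that of all genes. Aldoa was at 0.65 (0.14 to 1.16) in forebrain inhibitory and −0.33 (−0.88 to 0.22) in other excitatory neuron-like nuclei. Idh3a, a subunit of isocitrate dehydrogenase, was at 0.35 (−0.20 to 0.90) in cortical excitatory and −0.48 (−0.93 to −0.01) in other inhibitory neuron-like nuclei. Pkm, the pyruvate kinase gene, was at 0.40 (0.10 to 0.71) in other excitatory neuron-like nuclei and −0.42 (−0.89 to 0.04) in the dividing cluster. Suclg2, the succinyl-CoA ligase gene, was at −0.61 (−1.11 to −0.12) in radial glia-like nuclei and 0.61 (−0.04 to 1.31) in other inhibitory neuron-like nuclei. In none of the 4 genes did both intervals exclude 0.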

How the results depend on the processing

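No paired analysis was possible because each genotype has 1 library. The count of members past a log2 ratio of 0.32 between the libraries (3) was 2 to 4 under the alternatives with that limit, and 0 at a fold of 1.5. The count past 1.5-fold between neurons and radial glia-like nuclei (13) was 10 to 18 under other resolutions, gene minimums, doublet handling, thinning and scaling, and 7 at a fold of 2. It was 7 of 33 compared with radial glia-like nuclei without clusters holding dividing-cell markers, an alternative chosen after seeing the data; fewer genes could be compared. The count between vascular nuclei and neurons (4) was 1 at a fold of 2 and 1 of 1 compared after thinning to 1000 UMIs, and 3 to 4 otherwise. The count of gene shares within sets past 10 percentage points (17) was 13 to 17 under other settings. It was 16 without the largest neuron cluster and 7 without the clusters holding dividing-cell markers. Leaving out the largest neuron cluster and leaving out endothelial cell-like nuclei were also chosen after seeing the data. Of 470 single values recomputed for named members, none changed sign where called and 36 moved outside their counting interval. With doublets kept, the Pfkp log2 ratio of neurons to radial glia-like nuclei was 3.14 and 3.05, and the Hk2 share in radial glia-like nuclei 58.9% and 62.4%. The cause was not tested. With 65 and 78 vascular nuclei, 17 of 43 members could be compared with neurons.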

Other observations

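The barcodes left out for having under 500 genes had a higher summed level of the members than the nuclei used. In 2969 such barcodes of the wildtype-labelled library the members summed to 4112 CPM (4015 to 4211), against 1856 CPM in the nuclei used, and in 3904 barcodes of the knockout-labelled library to 4285 CPM (4201 to 4371), against 1904 CPM. Gapdh stood at 324 and 334 CPM there against 78.3 and 72.8 CPM, and Pkm at 412 and 380 CPM against 122 and 112 CPM. By member, 30 were higher in these barcodes in both libraries, 12 lower in both and 1 on opposite sides. The same count over all genes is not given here, so these numbers are not read as particular to the members. Hk1 was less apart, at 50.0 and 53.8 CPM against 36.2 and 36.5 CPM, and Slc2a3 was lower, at 14.4 and 15.4 CPM against 30.9 and 32.9 CPM. Pfkp was much lower, at 21.1 and 17.6 CPM against 162 and 199 CPM, with log2 ratios of −2.94 and −3.49. The others lower in both libraries were Hk2, Dlat, Pcx, Ogdh, Ogdhl, Dlst, Suclg2, Me1, Me2 and Me3. Ribosomal protein genes made up 10.4% and 11.2% of UMIs in these barcodes and 2.42% and 2.37% in the nuclei used. Their part in the member levels was not tested. The 2 clusters left without a name, 765 and 1057 nuclei with a mean depth of 1226 and 952 UMIs, also had high member levels. All 43 genes summed to 3364 CPM (3248 to 3483) and 3585 CPM (3469 to 3704) there, at 7.85% and 8.65% ribosomal protein UMIs. These nuclei are part of the levels over a whole library and of no class.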
